A study of Rattus norvegicus with 4 samples.

Results

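Deubiquitinating enzymes were taken as the genes whose single annotated symbol begins with Usp and a digit, Otub, Otud, Uchl or Josd, together with Bap1, Cyld, Atxn3, Brcc3, Stambp and Stambpl1, and without Usp18. The rule found 54 of the 12922 genes measured, on 83 probe sets, and the brightest probe set, by the mean over all 4 arrays, stood for each gene. One of the 54, Usp6nl, has a matching symbol but encodes a Rab GTPase-activating protein and not a protease. This leaves 53 genes of deubiquitinase families. They are 39 of the ubiquitin-specific protease (USP) family, 5 of the ovarian tumour (OTU) family, 4 of the ubiquitin C-terminal hydrolase (UCH) family, 3 of the Josephin family and 2 of the JAMM family. Symbols placed them there, and whether each product is an active protease was not examined. RNA came from rat aortic smooth muscle cells, cultured contractile cells of the arterial wall, plated at 10000 cells per cm2 with 10% serum for 24 h and then starved of serum and insulin for 72 h. After that, 2 samples received 30 ng/mL of PDGF-BB, a platelet-derived growth factor that drives these cells to divide, for 3 h, and 2 received its vehicle, 10 mM acetic acid with 0.2% bovine serum albumin, for the same time. The study asked which early genes go with the change of phenotype of these cells. Whether the 2 arrays of a group stem from different cultures is not in the labels, and the p-values therefore measure only the spread between them, which may be technical.

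Deubiquitinases are proteases that remove ubiquitin, a small protein tag, from other proteins or cut chains of it. They act against ubiquitin ligases, and so can spare a protein from the proteasome, change how a receptor is sorted in endosomes or erase ubiquitin marks on histones. The USP, OTU, UCH and Josephin families are cysteine proteases, while JAMM enzymes are zinc metalloproteases. In growth factor signalling they are best known for the sorting of receptor tyrosine kinases and for the lifetime of short-lived transcription factors.

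The deposited table holds linear probe set intensities, and the array medians were 145 and 148 with vehicle and 144 and 132 with PDGF-BB. Across probe sets, which are not independent replicates, the log2 values had a Pearson correlation of 0.995 within the vehicle pair, 0.993 within the PDGF-BB pair and 0.959 to 0.963 between groups. The brightest Bacillus control probe set, at 80.3, serves here as a rough guide to background. All 9 smooth muscle markers measured were above it on every array. Of them 3 were lower with PDGF-BB, Lmod1 (log2 -1.70, adjusted p 0.00246 by limma), Smtn (-0.79, 0.00930) and Myh11 (-0.70, 0.0256), and 6 did not pass, Acta2 and Tagln among them. The calls of Smtn and Myh11 ended without vehicle replicate 1 (0.0879 and 0.148), vehicle replicate 2 (0.0641 and 0.127) or PDGF-BB replicate 2 (0.0531 and 0.0579). All 6 endothelial markers measured had group means no higher than the guide, and their summed intensity was 80.7 and 81.2 with vehicle and 91.4 and 94.5 with PDGF-BB. Of 8 leukocyte markers, 5 were at or below it, Ptprc among them. Above it were Cd14, at 1395 and 1473 with vehicle and 1292 and 1126 with PDGF-BB, Lyz2, at 196 to 219, and Aif1, at 79.7 to 95.3 with both group means above. Of 6 fibroblast markers, 2 were at or below the guide, and Col1a1 was at 11912 and 11932 against 11137 and 10447. By limma, 0 of the endothelial, leukocyte and fibroblast markers passed, and 1, the fibroblast marker Lum, had an unadjusted p under 0.05. The part of these markers in the differences was not tested. All 9 of 9 listed genes known to respond to PDGF passed the test and were higher with PDGF-BB. The PDGF-BB replicate 2 array was below replicate 1 in 48 of the 54 members and in 70.9% of all genes. Its part in the differences was not tested beyond the fits without it, which are given beside each call they ended. Precision is limited by the number of arrays, and in bulk RNA fewer cells of a type and less RNA per cell cannot be told apart.

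Deubiquitinase genes went in both directions. With PDGF-BB, 13 of the 54 members were higher, 7 were lower and 34 did not pass, at an adjusted p under 0.05 by limma. The background over all genes was 27.7% called in either direction, 12.4% higher and 15.3% lower. Against that, 37.0% of the members were called, and 24.1% of the members were higher. The members were brighter than most genes, however. The central 80% of the members lay between intensities of 217 and 1381. Among all genes in that range, 40.1% were called, 16.4% higher and 23.7% lower. The members' total of calls was near that share, but a larger share of them was higher and a smaller share lower. The cause of this difference was not tested. Median log2 fold changes, on the scale of log2(intensity + 16), were 0.01 over the members, -0.12 over the genes in that range and -0.03 over all genes. All folds and log2 fold changes given here are on that scale, on which a fold is somewhat smaller than the ratio of the intensities. Usp6nl was among those that did not pass. The balance of the directions moved with quantile normalization. The 20 calls split into 13 higher and 7 lower as deposited, and after quantile normalization 29 calls split into 14 and 15. With array medians subtracted the split was 15 and 9, and after cyclic loess normalization it was 15 and 10. Over all genes the calls went from 3574, 44.9% of them higher, to 4775, 39.8% of them higher, after quantile normalization. Of all genes called, 52.6% were higher with array medians subtracted and 48.6% after cyclic loess normalization.

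**Figure D1:**
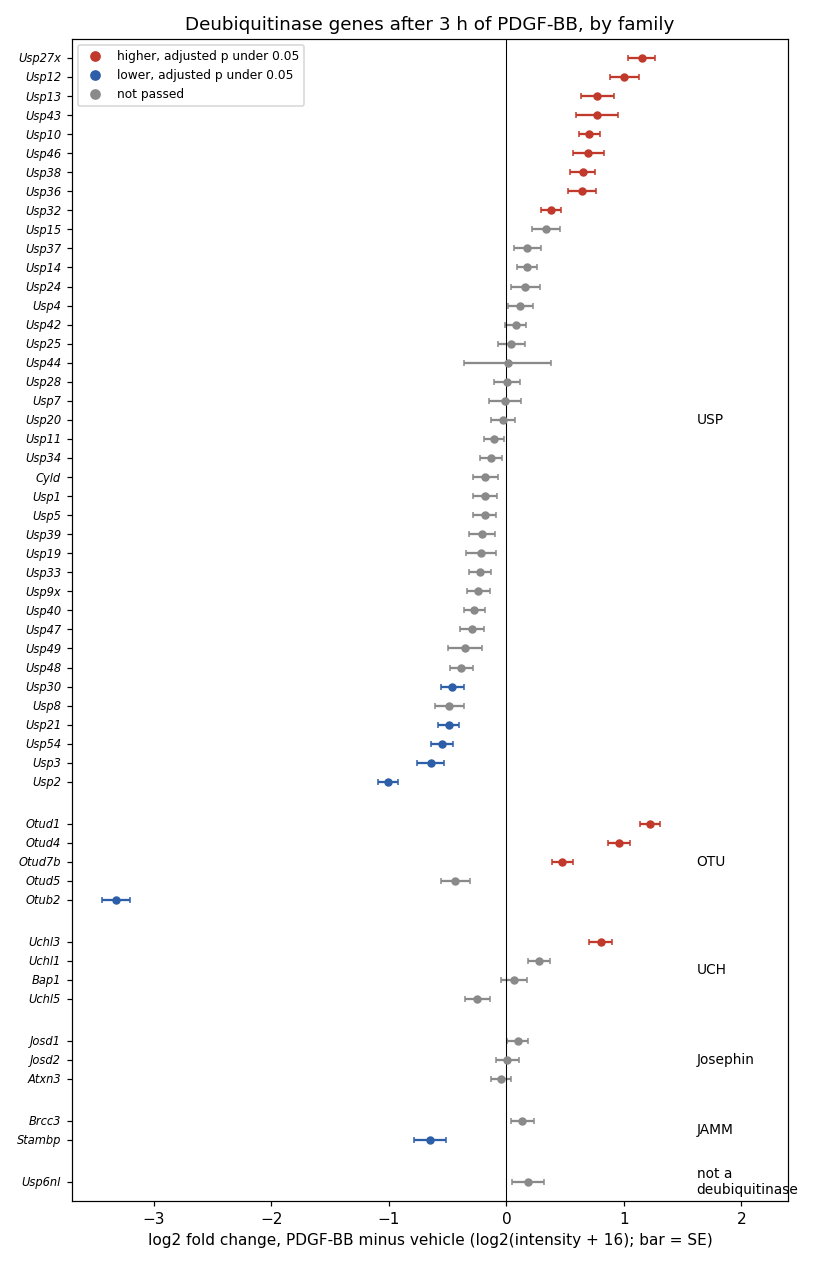
Log2 fold change of each of the 54 genes, PDGF-BB minus vehicle, on the x axis, with SE bars, grouped by enzyme family on the y axis; red and blue mark limma adjusted p-values under 0.05. On this scale the OTU family runs from Otub2 at -3.32 to Otud1 at 1.22, and the 3 Josephin genes lie between -0.05 and 0.10.

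**Figure D2:**
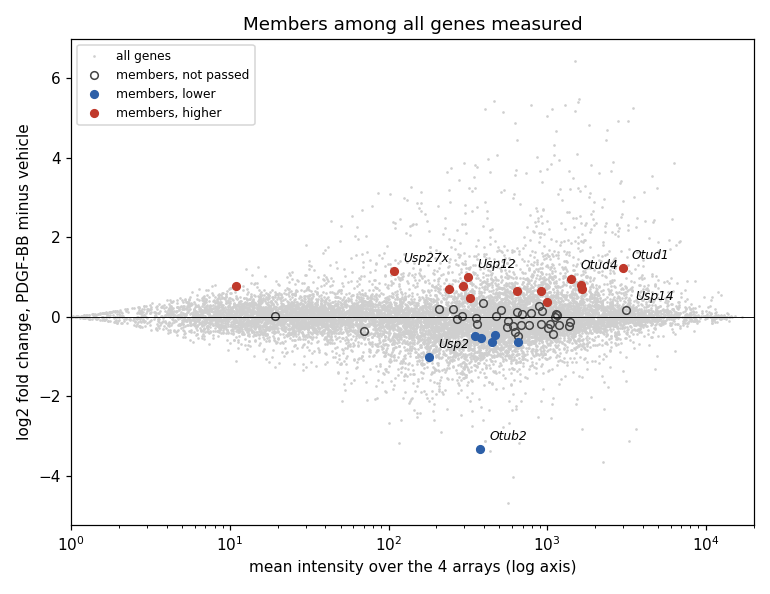
Log2 fold change against mean intensity over the 4 arrays on a log axis, for all 12922 genes in grey and the 54 members as circles. Red circles were called higher, blue circles lower, and open circles did not pass. Otub2 lies far below the other members, and the central 80% of the members lie between intensities of 217 and 1381.

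In the OTU family 3 of 5 genes were higher, 1 was lower and 1 did not pass, and it held the gene with the largest decrease, Otub2. Otub2, a small OTU protease, gave intensities of 722 and 674 with vehicle and of 61.7 and 49.6 with PDGF-BB. Both PDGF-BB arrays were below the background guide of 80.3 and far below both vehicle arrays. The mean fell from 698 ± 34.1 to 55.6 ± 8.54 (SD, n = 2), which is -3.32 on the log2(intensity + 16) scale (SE 0.12, adjusted p 0.000710 by limma), and the size of the decrease depends on values near background and on the offset (-3.63 with 1 and -2.67 with 64). A further Otub2 probe set fell by 2.24 (SE 0.12), from 275 and 326 to 48.9 and 53.1. The next largest called decrease among the members was that of Usp2, -1.01 on the same scale. The call of Otub2 held in each fit that left out 1 array, with limma adjusted p-values of 0.0116 to 0.0252.

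The promoter of Otub2, 250 bases before to 50 after the annotated start, is shown because this gene had the largest change of the set. It lies on the plus strand at chr6:128309613-128309912 of GRCr8, from RefSeq, and capitals mark the matches to the half-site of the cyclic AMP response element, TGACGT on either strand, which begin 43 and 5 bases before the annotated start. No match to the letters searched for AP-1 (TGANTCA), FOXO (GTAAACA), E-box (CACGTG) or ETS (CCGGAAG) motifs lay in this window.
Otub2: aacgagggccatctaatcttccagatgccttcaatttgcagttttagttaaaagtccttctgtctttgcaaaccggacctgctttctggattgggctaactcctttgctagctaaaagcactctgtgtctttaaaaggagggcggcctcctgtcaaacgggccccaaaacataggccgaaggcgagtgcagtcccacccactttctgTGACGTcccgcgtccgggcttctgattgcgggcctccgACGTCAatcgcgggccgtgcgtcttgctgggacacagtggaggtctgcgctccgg
The half-site was found in 8.2% of 27457 rat promoters of this length and in 6 of the 42 deubiquitinase promoters for which a sequence was matched by gene identifier. A match is a description of the letters and not of binding.

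Otud1, an OTU protease known for restraining innate immune signalling, was the second brightest member. Its intensity was 1808 and 1768 with vehicle and 4254 and 4119 with PDGF-BB, so the groups lay far apart. It rose 2.33-fold, a log2 fold change of 1.22 (SE 0.09, adjusted p 0.00277 by limma), and this call too held in each fit without 1 array (0.0298 to 0.0389). Otud4, an OTU enzyme that also binds RNA, was at 946 and 971 with vehicle and 1956 and 1804 with PDGF-BB. Its log2 fold change was 0.96 (SE 0.09, adjusted p 0.00556 by limma), and the call ended without vehicle replicate 1 (0.0608) or 2 (0.0561). For Otud7b, also named Cezanne, an enzyme tied to NF-kappaB signalling, intensities of 267 and 272 stood against 389 and 374. It rose by 0.48 (SE 0.09, adjusted p 0.0242 by limma), with no overlap between the groups, and lost the call in the fits without vehicle replicate 1 or 2 (0.179 and 0.160) or PDGF-BB replicate 1 or 2 (0.0613 and 0.0606). Otud5, the fifth gene, lay the other way, at 1265 and 1242 with vehicle and 1017 and 838 with PDGF-BB. Its log2 fold change of -0.43 (SE 0.13) missed the threshold (adjusted p 0.0738 by limma) and passed it under 6 of the 14 alternatives, among them the fit without PDGF-BB replicate 1 (0.0471).

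**Figure D3:**
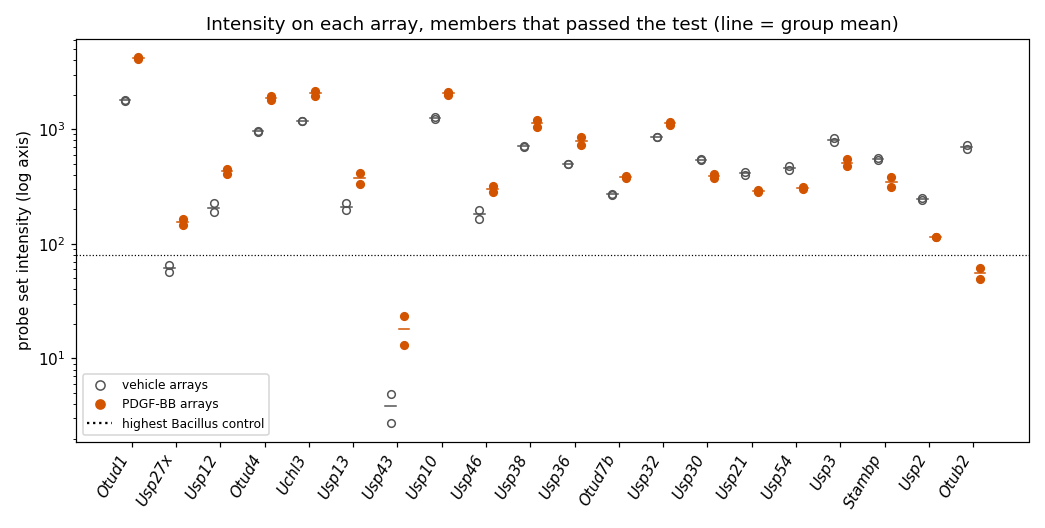
Intensity on each array, on a log axis, for the 20 members that passed the test, ordered by fold change; open circles are vehicle arrays, filled circles PDGF-BB arrays and short lines the group means. The arrays of the groups do not overlap in any of the 20, which were chosen by the test on these same arrays, nor in 67.5% of all genes. Usp43 lies wholly below the dotted line of the highest Bacillus control.

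In the USP family, 9 of 39 genes were higher, 5 lower and 25 did not pass, with a median log2 fold change of -0.03. Usp27x, an X-linked relative of the SAGA complex deubiquitinase Usp22, was at 57.2 and 66.0 with vehicle, below the background guide, and at 166 and 147 with PDGF-BB. It rose by 1.15 on the log2(intensity + 16) scale (SE 0.11, adjusted p 0.00562 by limma), a size that depends on values near background and on the offset (1.33 with 1 and 0.81 with 64), and the call ended without vehicle replicate 1 (0.0531). Usp12 and Usp46 are close paralogues that both need the WD40 protein Wdr48 for activity, and both rose. Wdr48 itself, at 580 and 611 with vehicle and 518 and 443 with PDGF-BB, did not rise (log2 -0.30, SE 0.11, adjusted p 0.133 by limma). Usp12 was at 188 and 226 with vehicle and 448 and 411 with PDGF-BB, a 2.00-fold increase (SE 0.12 on the log2 scale, adjusted p 0.00941 by limma). For Usp46 the intensities were 164 and 199 against 322 and 285, a log2 fold change of 0.70 (SE 0.13, adjusted p 0.0270 by limma), and its other probe set rose by 0.41 (SE 0.10). Neither gene's groups overlapped. Usp1, which works with the same partner in DNA repair, was at 952 and 998 with vehicle and 899 and 818 with PDGF-BB, and its log2 fold change of -0.18 (SE 0.10) did not pass (adjusted p 0.260 by limma). The Usp12 call ended without vehicle replicate 1 (0.0684), PDGF-BB replicate 1 (0.0545) or PDGF-BB replicate 2 (0.0544), and that of Usp46 without any single array (0.0801 to 0.149) and with an offset of 1 in place of 16 (0.0585).

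Usp10, which works with the stress granule protein G3bp1 and is known to act on p53, was the brightest USP gene that rose. Its values were 1235 and 1272 with vehicle and 2118 and 1995 with PDGF-BB, a 1.63-fold increase (log2 0.71, SE 0.09, adjusted p 0.0101 by limma). Usp36, the nucleolar deubiquitinase linked to ribosome production, read 501 on both vehicle arrays and 863 and 728 after PDGF-BB. It rose by 0.64 (SE 0.12, adjusted p 0.0238 by limma), while its relative Usp42 was at 669 and 689 against 738 and 698 and did not pass (log2 0.08, SE 0.09). Usp38 was at 705 and 716 with vehicle and 1201 and 1052 with PDGF-BB, giving a log2 fold change of 0.65 (SE 0.11, adjusted p 0.0183 by limma). In each of these risers both PDGF-BB arrays lay above both vehicle arrays, and the 2 PDGF-BB arrays differed more than the vehicle arrays did. Without vehicle replicate 1 or 2 the limma adjusted p was 0.0980 and 0.0873 for Usp10, 0.141 and 0.137 for Usp36 and 0.129 and 0.118 for Usp38. Usp36 also missed the threshold without PDGF-BB replicate 1 (0.0503) and with an offset of 1 (0.0519).

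Usp13, a paralogue of the chain-recycling enzyme Usp5, was at 198 and 226 with vehicle and 414 and 336 with PDGF-BB. It rose by 0.78 (SE 0.14, adjusted p 0.0244 by limma), and of its 3 probe sets 2 were called higher while the third and dimmest was at 98.5 and 68.8 against 47.9 and 91.4. The mean of the 3 gave a log2 fold change of 0.43 (adjusted p 0.0394 by limma). Usp5 itself, at 1122 and 1106 with vehicle and 1029 and 929 with PDGF-BB, had a log2 fold change of -0.19 (SE 0.10) that did not pass (adjusted p 0.250 by limma). The membrane-anchored Usp32 was the riser with the smallest change and lay just inside the threshold, at 858 and 864 against 1154 and 1098 (log2 0.38, SE 0.09, adjusted p 0.0435 by limma). Usp43 passed (adjusted p 0.0432 by limma) on intensities of 4.91 and 2.72 against 13.1 and 23.3, all below the background guide, so it gives no measured level. The call of Usp13 ended without any single array (0.0511 to 0.142) and with an offset of 1 (0.0547). That of Usp32 likewise ended without any single array (0.0760 to 0.247), with an offset of 1 (0.0701) and with the mean of both its probe sets (0.0695). For Usp43 it ended without either vehicle array (0.140 without replicate 1 and 0.190 without replicate 2) or PDGF-BB replicate 2 (0.0854), and with offsets of 1 (0.0598) or 64 (0.0636).

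A further pair of promoters is shown from RefSeq, that of Usp27x as the riser with the largest change on the log2(intensity + 16) scale among those with a matched sequence, and that of Usp38 as the riser with the most motif matches. Usp27x lies on the plus strand at chrX:17795256-17795555 and Usp38 on the plus strand at chr19:43910224-43910523 of GRCr8. In Usp38 the capitals mark, in order from the 5′ end, an ETS match, a half-site of the cyclic AMP response element, an AP-1 match and 2 more ETS matches, the last of them on the other strand and after the annotated start. The Usp27x window held none of the motifs searched.
Usp27x: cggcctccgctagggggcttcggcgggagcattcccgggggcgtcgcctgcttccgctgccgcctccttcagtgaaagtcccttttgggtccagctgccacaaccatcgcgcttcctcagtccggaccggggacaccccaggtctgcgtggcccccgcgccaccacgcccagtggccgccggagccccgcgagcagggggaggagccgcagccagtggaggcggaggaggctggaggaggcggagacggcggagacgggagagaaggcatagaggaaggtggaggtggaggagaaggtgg
Usp38: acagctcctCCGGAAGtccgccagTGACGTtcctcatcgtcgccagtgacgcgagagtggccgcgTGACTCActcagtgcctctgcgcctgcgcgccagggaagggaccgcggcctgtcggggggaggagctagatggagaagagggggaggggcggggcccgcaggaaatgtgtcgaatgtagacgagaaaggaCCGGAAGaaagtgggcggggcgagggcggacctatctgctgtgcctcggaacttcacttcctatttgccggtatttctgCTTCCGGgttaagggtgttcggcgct
Over the 42 deubiquitinase promoters matched, ETS letters were found in 10, against 9.2% of all promoters, AP-1 letters in 2 (7.3%), FOXO letters in 1 (3.8%) and E-box letters in 3 (6.7%). Of the 13 members that rose, 9 had a matched sequence. Among the matched members, ETS letters were held by 1 of 9 that rose, 3 of 7 that fell and 6 of 26 that did not pass. The deubiquitinase promoters had a median GC content of 63.5%, against 52.3% over all promoters, and the part of base composition in these shares was not tested.

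The 5 USP genes that fell had mean intensities over all 4 arrays of 181 to 658. These lay inside the range of the 9 USP risers, from Usp43, below the background guide, to Usp10 at 1655. Usp2, a protease with a daily rhythm of expression that is known to stabilise cyclin D1, fell most. It was at 243 and 251 with vehicle and 116 and 114 with PDGF-BB, a 2.01-fold decrease (log2 -1.01, SE 0.09, adjusted p 0.00423 by limma). The arrays of each group were close together and the groups far apart. A further Usp2 probe set, at 160 and 149 against 114 and 144, did not pass (log2 -0.24, SE 0.14), and the mean of both gave -0.62. Usp3, a histone deubiquitinase, was at 775 and 835 with vehicle and 546 and 474 with PDGF-BB, and fell by 0.64 (SE 0.11, adjusted p 0.0219 by limma). Usp21, which also removes ubiquitin from histone H2A, was at 402 and 427 against 295 and 286 and fell by 0.49 (SE 0.09, adjusted p 0.0247 by limma). Usp54 was at 473 and 441 against 302 and 313 and fell by 0.55 (SE 0.09, adjusted p 0.0196 by limma). For Usp30, the mitochondrial outer membrane enzyme that opposes the removal of mitochondria by autophagy, values of 535 and 553 stood against 409.7 and 372 (log2 -0.46, SE 0.10, adjusted p 0.0345 by limma). No groups overlapped in these genes. The Usp2 call ended without vehicle replicate 2 (0.0510), and that of Usp3 without either vehicle array (0.114 without replicate 1 and 0.144 without replicate 2) or PDGF-BB replicate 2 (0.0697). Usp21 (0.0610 to 0.182), Usp54 (0.0625 to 0.158) and Usp30 (0.0528 to 0.206) missed the threshold without any single array, and Usp30 also with an offset of 1 (0.0619).

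Just outside the threshold lay Usp48 and Usp8. Usp48 was at 713 and 714 with vehicle and 568 and 519.9 with PDGF-BB (log2 -0.38, SE 0.09, adjusted p 0.0508 by limma). Usp8, the endosomal enzyme that governs sorting of receptor tyrosine kinases, was at 726 and 805 against 588 and 499 (log2 -0.49, SE 0.12, adjusted p 0.0563 by limma). Neither overlapped between groups, and each passed under 6 of the 14 alternative settings. The dimmer probe set of each gave a log2 fold change of -0.25, with limma adjusted p-values of 0.215 for Usp48 and 0.300 for Usp8. With the mean of both probe sets the limma adjusted p was 0.0979 for Usp48 and 0.114 for Usp8. Over all 25 USP genes that did not pass, log2 fold changes ran from -0.49 to 0.34. In 14 of them both PDGF-BB arrays lay below both vehicle arrays, in 6 above, and in 5 the groups overlapped. Over all genes, the PDGF-BB arrays lay below in 37.8% and above in 29.7%, 67.5% together, so such separation is common here.

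Several well-studied USP genes, most of them bright, did not pass. Usp14, the proteasome-bound enzyme and the brightest member, was at 2925 and 3010.0 with vehicle and 3373 and 3337 with PDGF-BB, giving a log2 fold change of 0.18 (95% confidence interval -0.05 to 0.41). For Usp7, known for its hold on Mdm2 and p53, the PDGF-BB arrays at 1231 and 993 enclosed the vehicle arrays at 1102 and 1128. Its log2 fold change was -0.01, with an interval of -0.37 to 0.35, and its sign turned with the scaling. Usp9x, a large enzyme of the X chromosome, was at 1436 and 1533 against 1302 and 1209 (log2 -0.24, interval -0.50 to 0.02), and its 2 other probe sets gave -0.35 and -0.18. Usp34 was at 1465 and 1437 against 1373 and 1272 (log2 -0.13, interval -0.38 to 0.11). The dimmer Cyld, the tumour suppressor that limits NF-kappaB signalling, was at 387 and 386 against 365 and 315 (log2 -0.18, interval -0.47 to 0.11). The remaining bright genes Usp33, Usp25, Usp47 and Usp5 had log2 fold changes of -0.22, 0.04, -0.29 and -0.19. These intervals show what the arrays allow, and do not show that a gene kept its level.

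The other USP genes that did not pass included several sets of relatives. Usp4, Usp11 and Usp15 share 1 domain layout, and their log2 fold changes were 0.12 (SE 0.10), -0.11 (SE 0.09) and 0.34 (SE 0.12). Usp15 had the highest value of the USP genes that missed the threshold, at 332 and 362 with vehicle and 476 and 410.2 with PDGF-BB (adjusted p 0.113 by limma), and it passed under 4 alternative settings. Usp20 and Usp33, paralogues known from the recycling of beta-adrenergic receptors, gave -0.03 (SE 0.10) and -0.22 (SE 0.10). Usp25 and Usp28, a further pair, gave 0.04 (SE 0.12) and 0.01 (SE 0.11), and both overlapped between groups. Usp37, an enzyme of the cell cycle, was at 247 and 229 against 294 and 251 (log2 0.18, SE 0.12). Usp24, Usp39, Usp19 and Usp40 gave 0.16, -0.21, -0.22 and -0.27, with adjusted p-values by limma of 0.420, 0.260, 0.299 and 0.104. Of these 4, the PDGF-BB arrays lay above the vehicle arrays in Usp24 and below them in the others. A further Usp24 probe set, at 394 and 438 against 608 and 506, gave 0.40 (SE 0.13, adjusted p 0.0965 by limma). The mean of both Usp24 probe sets gave 0.28. Usp44 was below the background guide on every array, at 9.21 and 29.4 against 11.3 and 26.8, and Usp49 was near it, at 92.7 and 69.8 against 61.0 and 58.6 (log2 -0.35, SE 0.14, adjusted p 0.160 by limma).

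The UCH family had 1 gene higher and 3 not passed. Uchl3, which trims small adducts from ubiquitin and from the related tag Nedd8, was at 1182 and 1173 with vehicle and 2174 and 1964 with PDGF-BB. It rose 1.74-fold (log2 0.80, SE 0.10, adjusted p 0.00910 by limma), with the groups well apart, and missed the threshold without vehicle replicate 1 (0.0819) or 2 (0.0815). Uchl1, better known from neurons, was at 785 and 821 against 1012 and 940.2, a log2 fold change of 0.28 (SE 0.09, adjusted p 0.108 by limma). Its arrays did not overlap, and it passed under 5 alternative settings. Bap1, the nuclear tumour suppressor that removes ubiquitin from histone H2A, overlapped between groups, at 1061 and 1174 against 1231 and 1106 (log2 0.06, interval -0.23 to 0.36). The proteasome-bound Uchl5 was at 628 and 701 against 581 and 534 (log2 -0.25, SE 0.11, adjusted p 0.177 by limma).

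In the JAMM family, Stambp fell and Brcc3 did not pass; Stambpl1 had no probe set of a single symbol and was not analysed here. Stambp, also named AMSH, is the endosomal metalloprotease that works on receptors beside Usp8. It was at 543 and 564 with vehicle and 387 and 311 with PDGF-BB, a 1.57-fold decrease (log2 -0.65, SE 0.13, adjusted p 0.0323 by limma). The groups did not overlap, while the PDGF-BB arrays differed more than the vehicle arrays. Its call ended without either vehicle array (0.149 without replicate 1 and 0.166 without replicate 2) or PDGF-BB replicate 2 (0.0648), and with an offset of 1 (0.0669). Brcc3, a subunit of the BRCA1-A and BRISC complexes, was at 862 and 916 against 1026 and 932 (log2 0.14, SE 0.10, adjusted p 0.401 by limma). By limma, 0 of the 3 Josephin genes passed, and 0 had an unadjusted p under 0.05. Josd1 was at 779 and 746 against 835 and 798, Josd2 at 504 and 449.6 against 478 and 480.2, and Atxn3, the ataxia gene, at 274 and 279 against 263 and 271. Their log2 fold changes were 0.10, 0.01 and -0.05, and that of Atxn3 turned its sign with the scaling.

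Of the members, 21 had several probe sets. Among the called ones, 6 did, and in 2 of them, Otub2 and Usp46, every probe set was called. In Otud7b, Usp13, Usp32 and Usp2 at least 1 probe set did not pass, and none was called in the opposite direction. The probe sets of Otub1, the abundant sister gene of Otub2, are annotated to 2 symbols and so lie outside the rule. The brighter of them was at 1369 and 1384 with vehicle and 1346 and 1268 with PDGF-BB (log2 -0.07, SE 0.09, adjusted p 0.607 by limma), and the dimmer at 324 and 305 against 467 and 402 (log2 0.44, SE 0.11, adjusted p 0.0550 by limma).

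With 1 array left out, far fewer members were called: 3 and 4 in the fits without vehicle replicate 1 and 2, and 12 and 9 in those without PDGF-BB replicate 1 and 2. Calls over all genes fell as well, from 3574 to 791, 847, 2692 and 1894 in the same order. Each such fit rests on a lone array in 1 group, which is assumed to vary like the others. Otud1 and Otub2 were the only called members that passed in all 4 of these fits, and also in all 14 alternatives tried.

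**Figure D4:**
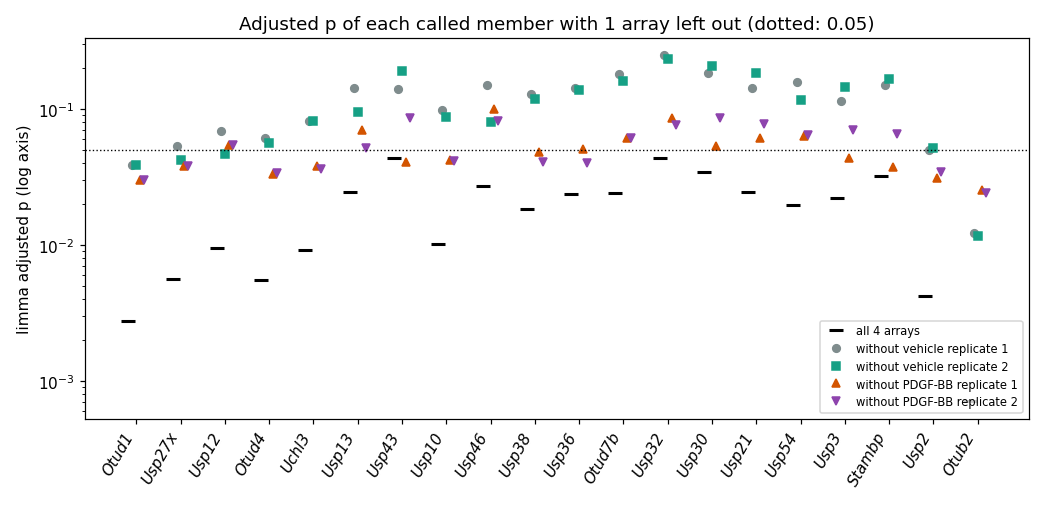
Limma adjusted p, on a log axis, of each of the 20 called members with all 4 arrays (black bars) and with each array left out (symbols); the dotted line is 0.05. Only Otud1 and Otub2 stay below the line in all 4 fits, and leaving out a vehicle array raised most values further than leaving out a PDGF-BB array.

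Other genes of ubiquitin handling were described by lists. Of 20 other deubiquitinases and relatives outside the symbol rule, 3 were higher, 4 lower and 13 did not pass, with a median log2 fold change of -0.07. Usp18, which removes the ubiquitin-like Isg15, was at 24.0 and 34.4 with vehicle, below the background guide, and at 305 and 261 with PDGF-BB (2.73 on the log2(intensity + 16) scale, SE 0.16, adjusted p 0.00179 by limma). Tnfaip3, the NF-kappaB feedback inhibitor A20, was at 147 and 179 against 774 and 641 (log2 2.01, SE 0.15, adjusted p 0.00323 by limma). Both calls held in each fit without 1 array. Mindy1, a protease of long ubiquitin chains, fell from 716 and 745 to 375 and 344 (log2 -0.99, SE 0.09), and missed the threshold without vehicle replicate 1 (adjusted p 0.0538 by limma) or 2 (0.0573). Pan2, a relative that acts in poly(A) shortening, fell by 0.98 (SE 0.11) and missed it without vehicle replicate 1 (0.0658) or 2 (0.0620). Tut1, which stands in this list, is a nucleotidyltransferase and no deubiquitinase.

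Of 32 partner proteins of deubiquitinases, 4 were higher, 6 lower and 22 did not pass, with a median of -0.08. Ogt, the O-GlcNAc transferase that binds the Bap1 complex, fell from 2030.2 and 1942 to 966 and 829 (log2 -1.14, SE 0.11, adjusted p 0.00579 by limma). Hgs, which sorts ubiquitin-tagged receptors beside Stambp and Usp8, rose from 1131 and 1118 to 1800.2 and 1649 (log2 0.61, SE 0.09, adjusted p 0.0163 by limma), and Uimc1, a ubiquitin reader of the Brcc3 complex, fell by 0.64 (SE 0.10, adjusted p 0.0152 by limma). The limma adjusted p without vehicle replicate 1 or 2 was 0.0570 and 0.0506 for Ogt, 0.122 and 0.124 for Hgs and 0.101 and 0.123 for Uimc1, which also missed the threshold without PDGF-BB replicate 2 (0.0606) and with the mean of all its probe sets (log2 -0.33, 0.156). Among 35 ubiquitin, E1 and E2 genes, 6 were higher, 4 lower and 25 did not pass, with a median of 0.05. The conjugating enzyme genes Ube2g2, Ube2f and Ube2n rose by 1.01 (SE 0.09), 0.82 (SE 0.09) and 0.78 (SE 0.09), and Ube2h fell by 1.02 (SE 0.10). Ube2n is counted in both lists. These 4 calls ended without vehicle replicate 1 (limma adjusted p 0.0527, 0.0747, 0.0744 and 0.0578 in the same order) or vehicle replicate 2 (0.0520, 0.0688, 0.0807 and 0.0598). Of 9 SUMO and NEDD8 proteases and modifiers, 1, the SUMO protease Senp2, was higher (log2 0.49, SE 0.09, adjusted p 0.0217 by limma), a call that ended without any single array (0.0541 to 0.166) and with the mean of all its probe sets (log2 0.20, 0.631). The shares called, 35.0%, 31.2%, 28.6% and 11.1% in the order of the lists, stand beside 27.7% of all genes. The lists were brighter, with median vehicle intensities of 647, 687, 1792 and 1209 in the same order, against 297 over all genes. Among all genes with a group mean above the background guide, 36.5% were called.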

How the data were processed

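Per the labels' protocols, spin columns gave total RNA, and biotinylated cRNA went onto Affymetrix arrays. The deposited table gives the intensity of each probe set, linear by its values. How the authors summarised, background-corrected and scaled the arrays is not given in the sources used here. Sample titles gave groups and replicate numbers.

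Leaving out 57 control probe sets of 23764 left 23707 to test. The platform annotation of 2016 names 1 symbol for 17279, several for 373 and none for 6055. All 54 members matched a reference gene by identifier. Values were tested as log2(intensity + 16), an offset that understates the change of dim genes, by limma 3.58.1 (R 4.3.3, lmFit and eBayes), with two-sided p-values adjusted by Benjamini-Hochberg over all 23707 probe sets and a threshold of 0.05. The prior had 2.40 degrees of freedom beside 2 residual ones. The design planned this transformation for linear values. The procedure was tested on simulated data. Genes were named if they were members that passed, the brightest 6 that did not, the brightest of a family with none called, up to 4 per list, or fixed by name; values of other members were added to account for all families. The members and lists were chosen with earlier results of these data known. The 14 alternatives covered offset, scaling, filter, probe set, variance trend, replicate block and each array left out.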

Additional observations from a re-analysis of the deposited data

How the results depend on the processing

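Of the deubiquitinase genes, 13 were called higher and 7 lower. The number higher was 8 with an offset of 1. The number lower was 11 with an offset of 64, 15 after quantile normalization, 12 with dim probe sets filtered out and 12 with an intensity trend in limma, and the 7 called lower with all settings as reported were among them in each case. Over all genes the number lower rose too, from 1971 to 2572, 2874, 2697 and 2629 in the same order. Leaving out each array in turn gave 1 to 7 higher and 1 to 5 lower. Under the other alternatives both numbers stayed within 1.5 times. No called gene among the members changed its direction under any of the 14 alternatives, and 12 of the members that did not pass were called under at least 1 of them. The signs of Atxn3, Bap1, Usp25, Usp7 and Usp20, none of them called, turned with the scaling. With the replicate number as a block, 11 members were higher and 5 lower, and the adjusted p by limma was 0.104 for Usp32, 0.0573 for Otud7b, 0.0689 for Usp30 and 0.0549 for Usp21, which lost their calls, as did Senp2 (0.0532). The labels do not say that equal numbers share a culture or day, and the deviations of same-numbered arrays had a correlation of -0.10 across probe sets, so the numbers were not taken as pairs. The fit with dim probe sets filtered out gives no value for Usp43. The causes of these shifts were not tested. Signals near 80.3 or below limit Otub2 with PDGF-BB, Usp27x with vehicle, and Usp43, Usp44 and Usp49.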
